A study of Mus musculus and Bos taurus with 6 samples.

Results

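The miR-200 family, which includes miR-141 and miR-429, was followed in small RNA libraries of lactating mammary gland. Its members were taken as the lines for miR-200a, miR-200b, miR-200c, miR-141 and miR-429 with both arms of each precursor, by name alone and without a threshold on any level. They were 10 of the 1750 lines listed for mouse and 7 of the 1539 listed for bovine. The mouse lines hold a 5p and a 3p arm of each precursor. The bovine lines hold the 3p arm of each precursor under bovine names and the 5p arms of miR-200a and miR-200b under mouse names. A bovine line for miR-200c-5p under a human name falls outside the rule and is given only as an arm of its precursor. No bovine values are given here for miR-141-5p and miR-429-5p.

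There were 3 groups of 2 libraries each. The mouse group held total RNA from abdominal mammary glands of FVB/N mice at day 12 of lactation, with no co-immunoprecipitation. The authors removed the lymph node of the gland at sampling. The AGO2 group held RNA that came down with Argonaute 2 from glands of the same strain and day, with a monoclonal antibody to EIF2C2 (Abnova), another name of AGO2. The bovine group held mammary biopsies of Holstein cows at mid-lactation, with each library made from a pool of 2 cows fed a hay-based, low forage (LF) diet with concentrates. All animals were lactating, so no group shows the gland in another state, and each tissue piece is a mixture of cell types. Mouse and AGO2 RNA was isolated with the RNA NOW kit and bovine RNA with the Nucleospin miRNA kit. The mice were primiparous and the cows multiparous. Species, parity, way of sampling, kit and pooling thus cannot be told apart. The authors describe glands from 2 mice, and on that count the 4 mouse and AGO2 libraries share animals. No source used here says which animal each library came from. The main tests treated the libraries as independent, so p-values measure only the spread between these libraries.

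A miRNA precursor is a hairpin whose arms are named 5p and 3p. Usually one arm, the guide, is kept by an Argonaute protein, and the other, the passenger, is degraded. The guide finds target mRNA mainly through its seed, taken here as bases 2 to 8. The miR-200 family is abundant in epithelial cells and is known for repressing ZEB1 and ZEB2, transcription factors that switch off the adhesion gene E-cadherin. Through this repression it helps to keep cells in an epithelial state, and the secretory and ductal cells of the mammary gland are epithelial.

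The 5 mature 3p sequences are shown because AGO2 and mouse are compared below by seed, which is in capitals. The prefix mmu- marks a mouse and bta- a bovine sequence. They are given 5′ to 3′ from RefSeq on GRCm38.p6, where all 10 mouse members matched, and each was equal to the deposited mouse sequence.
mmu-miR-200a-3p: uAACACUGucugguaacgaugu
mmu-miR-141-3p: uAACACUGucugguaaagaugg
mmu-miR-200b-3p: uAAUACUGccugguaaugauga
mmu-miR-200c-3p: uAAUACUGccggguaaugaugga
mmu-miR-429-3p: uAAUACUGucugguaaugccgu
The seed AACACUG is shared by miR-200a-3p and miR-141-3p, and the seed AAUACUG by miR-200b-3p, miR-200c-3p and miR-429-3p. With positions counted from 1 at the 5′ end, the seeds differ by C4U, with the miR-200a-3p base first. No other line of the mouse or bovine lists carried either seed. Over 22 positions miR-200a-3p and miR-141-3p differ by C17A and U22G, and miR-200b-3p and miR-200c-3p by U11G and A22G. Pairs this close can exchange trimmed or mismatched reads during counting, and the mismatch settings of the counting were not given in the sources used here.

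The 5p arms tested between groups are shown in the same way for comparison with the 3p arms, since their seeds do not follow the 3p grouping.
mmu-miR-200a-5p: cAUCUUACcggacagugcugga
mmu-miR-141-5p: cAUCUUCCagugcaguguugga
mmu-miR-200b-5p: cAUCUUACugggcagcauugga
Here miR-200a-5p and miR-200b-5p share the seed AUCUUAC, whereas miR-141-5p carries AUCUUCC. The deposited bovine 3p sequences had the same 2 seeds, with 1 base more at the 3′ end of miR-200a-3p and 1 base less in miR-200b-3p than the mouse forms.
bta-miR-200a-3p: uAACACUGucugguaacgauguu
bta-miR-200b-3p: uAAUACUGccugguaaugaug

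The family lies in 2 clusters in the mouse genome (GRCm38), both on the minus strand. Mir200b, Mir200a and Mir429 span 1846 bases at chr4:156053905-156055750. All 3 lie in introns of Ttll10, a protein-coding gene, and within Gm13648, a processed transcript of which an exon overlaps Mir429 alone. Mir200c and Mir141 span 477 bases at chr6:124717914-124718390, inside an intron of Gm15884, annotated as antisense. Mir141 also overlaps an exon of Gm29008. Each cluster holds members of both seeds, so the grouping by seed and the grouping by position cross each other. Bovine positions were not analysed here, and bovine members were put into clusters by name.

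The counts summed to 9299807 and 8391916 in mouse libraries 1 and 2, 3909166 and 5041406 in AGO2 libraries 1 and 2, and 9402483 and 10613807 in bovine libraries 1 and 2. Levels are given in RPM, a count scaled to the sum of all counts of its library. A count of 0 allows up to 3 counts, or 0.283 to 0.767 RPM, and intervals and limits cover counting error only. Of the 895 known mouse miRNA, 16.2% and 23.1% were at 0 in the mouse libraries and 57.3% and 31.4% in the AGO2 libraries. The mouse libraries lay far apart, with an SD of 0.93 for the log2 ratio of library 2 over library 1 over 171 miRNA. The epithelial list of 8 miRNA (miR-182-5p, miR-375-3p, miR-203-3p and miR-96-5p the most abundant in mouse) summed to 9491 and 6487 RPM in mouse, 3947 and 3125 RPM in AGO2 and 7344 and 8014 RPM in bovine libraries. The bovine lines held 7 of these 8 miRNA, so the bovine sums cover fewer miRNA than the others. Within the list, miR-184-3p was at 0 in all AGO2 and bovine libraries and at 1 count in each mouse library.

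The family took a large share of each library, and most so in AGO2. It made up 16.0% and 18.9% of the counts in the mouse libraries, 33.8% and 36.8% in the AGO2 libraries and 7.40% and 7.56% in the bovine libraries. The groups did not overlap, and the means were 17.4% ± 2.05 in mouse, 35.3% ± 2.13 in AGO2 and 7.48% ± 0.116 in bovine (SD, n = 2). At these depths the 95% Wilson interval of the share ran from 15.96% to 16.01% in mouse library 1 and from 33.74% to 33.83% in AGO2 library 1, far narrower than the distance between libraries. The 3p arms carried nearly all of it, since the 5p arms together held 0.596% and 0.382% of the family's counts in mouse, 0.228% and 0.0966% in AGO2 and 0.615% and 0.762% in bovine libraries.

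**Figure D1:**
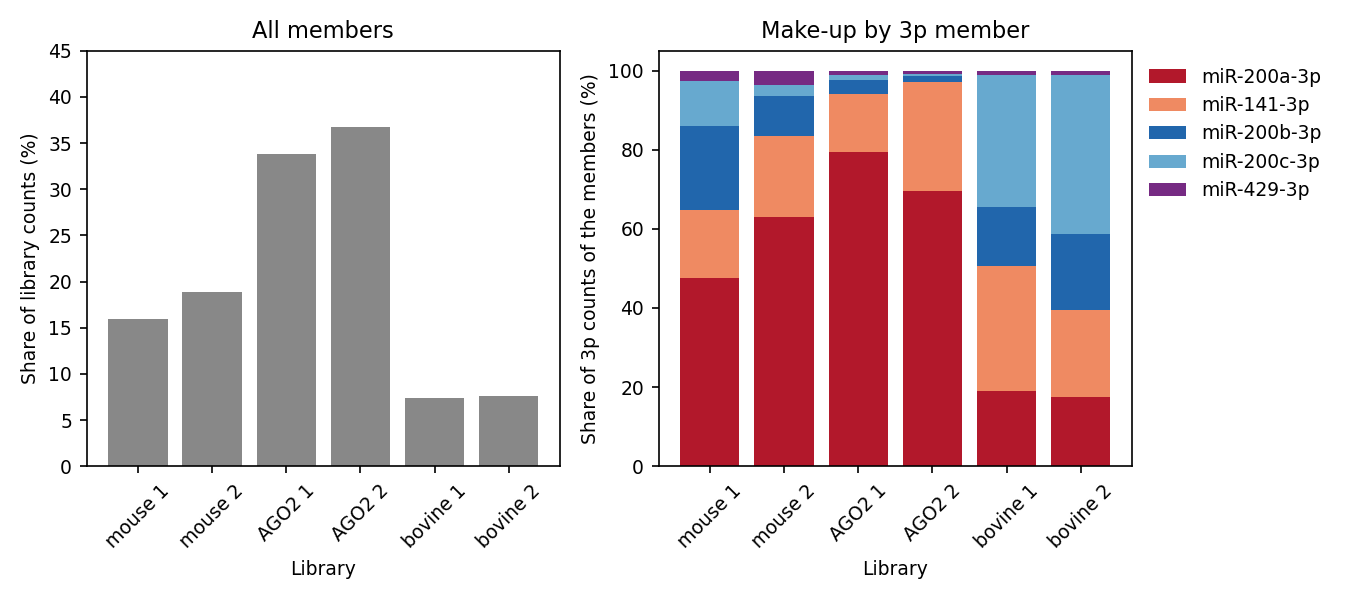
The left bars give the share of all counts of each library (%) taken by the members, and the right bars split the 3p counts of the members (%) by miRNA, for 2 mouse, 2 AGO2 and 2 bovine libraries. The share is 33.8% and 36.8% in AGO2 and under 8% in bovine libraries, and miR-200a-3p makes up most of the AGO2 bars whereas miR-200c-3p is the largest part of the bovine bars.

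Within the 3p arms the leading member changed between groups. In mouse, miR-200a-3p held 47.5% and 63.0% of the family's 3p counts. In AGO2 it held 79.5% and 69.6%, and miR-141-3p a further 14.7% and 27.4%. In bovine the leading member was miR-200c-3p, with 33.4% and 40.0%, whereas miR-200a-3p held 19.0% and 17.4%. The order of the mean levels in mouse was miR-200a-3p, miR-141-3p, miR-200b-3p, miR-200c-3p and miR-429-3p, but only miR-200a-3p lay above all the others in both libraries. In library 1 miR-200b-3p was above miR-141-3p, and in library 2 miR-429-3p was above miR-200c-3p. In AGO2 miR-200a-3p, miR-141-3p and miR-200b-3p kept that order in both libraries, while miR-200c-3p and miR-429-3p changed places between them. In bovine miR-200c-3p was the highest and miR-429-3p the lowest in both libraries, and miR-141-3p stood second in both.

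The levels of the AACACUG members follow. The level of miR-200a-3p was 75449 and 118479 RPM in the mouse libraries, 267861 and 255991 RPM in the AGO2 libraries and 13948 and 13093 RPM in the bovine libraries. It was the most abundant line of both AGO2 libraries, ranked 3 and 1 in mouse and 23 and 24 in bovine, and its groups did not overlap. Such separation was common, since groups lay apart upward for 33.1% and downward for 39.8% of the miRNA tested in AGO2 over mouse, and for 41.8% and 42.4% in bovine over mouse. The level of miR-141-3p was 27622 and 38711 RPM in mouse, 49621 and 100647 RPM in AGO2 and 23331 and 16586 RPM in bovine libraries. Both AGO2 libraries were above both mouse libraries, and both bovine libraries were below them, but the AGO2 libraries themselves lay 2.03-fold apart.

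The AAUACUG members had the opposite order of mouse and AGO2. The level of miR-200b-3p was 33569 and 18791 RPM in mouse, 11544 and 5994 RPM in AGO2 and 10800 and 14429 RPM in bovine libraries. AGO2 and bovine values overlapped each other and lay below both mouse libraries. The level of miR-200c-3p was 17888 and 5127 RPM in mouse, 4567 and 1788 RPM in AGO2 and 24588 and 30029 RPM in bovine libraries. Its mouse libraries lay 3.49-fold apart, the widest gap of the 3p members, so that mouse library 2 was close to AGO2 library 1. The level of miR-429-3p was 4359 and 7012 RPM in mouse, 3502 and 3147 RPM in AGO2 and 843 and 893 RPM in bovine libraries. It was the least abundant 3p member in bovine, and its groups did not overlap.

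**Figure D2:**
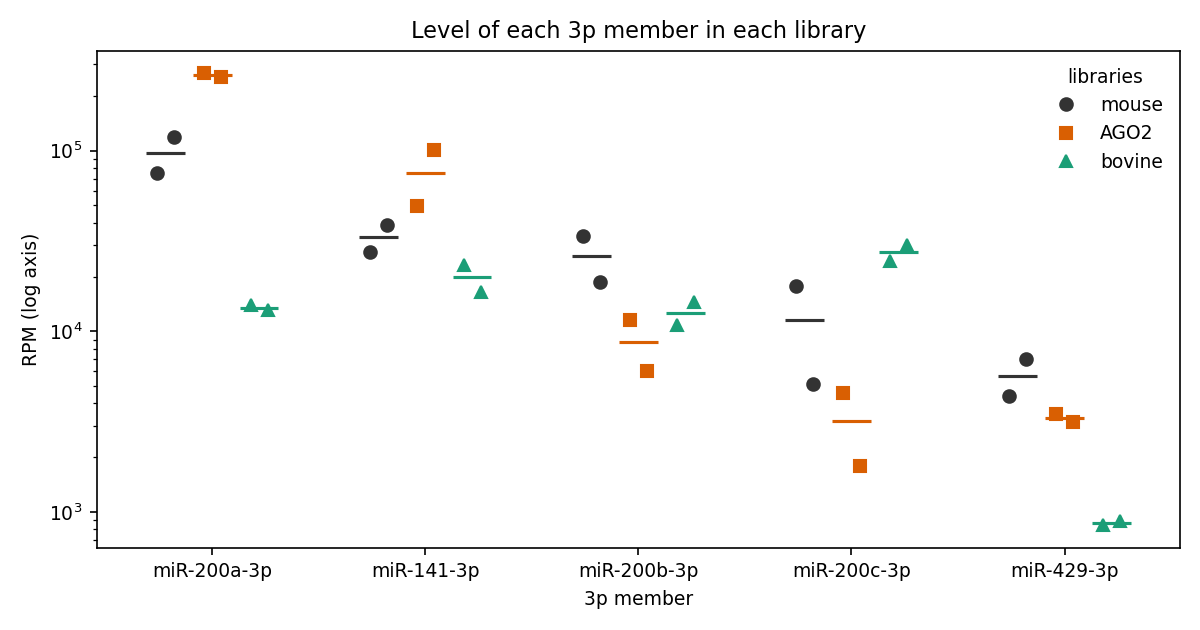
Each point is the level (RPM, log axis) of a 3p member in 1 library, with circles for mouse, squares for AGO2 and triangles for bovine, and the bar is the mean of the 2 libraries. The AGO2 points are above the mouse points for miR-200a-3p and miR-141-3p and below them for the other 3 members, and the bovine points are above all others only for miR-200c-3p.

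The comparison of AGO2 with mouse total RNA addresses which miRNA are loaded in the silencing complex. No library of a control precipitate is in the series, so a higher share in AGO2 does not by itself show loading. Counts were fitted with edgeR (quasi-likelihood, p-values adjusted after Benjamini and Hochberg), and 8 of the 10 members passed the study's own filter on low counts. Of these 8, 2 were called higher and 2 lower at an adjusted p under 0.05, and 4 were not called. Over all 299 miRNA tested, 27.8% were called, 15.4% higher and 12.4% lower, against 2 of 8 members in each direction, and with so few members these shares cannot be set apart. The median log2 fold change was -0.59 over the 8 members and -0.12 over all miRNA tested.

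The 2 members called higher were those of the seed AACACUG. In AGO2 miR-200a-3p was higher by a log2 fold change of 1.58 ± 0.27 (SE), or 2.98-fold (adjusted p = 0.000388, edgeR), and this call remained without any 1 library, with log2 fold changes of 1.26 to 1.94. The log2 fold change of miR-141-3p was 1.34 ± 0.37 (adjusted p = 0.00976, edgeR). Without AGO2 library 2 it was 0.80 and was not called (adjusted p = 0.426, edgeR). With no filter on low counts neither was called (adjusted p = 0.132 and 0.256, edgeR), at log2 fold changes of 1.45 and 1.24.

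The 2 members called lower carry the seed AAUACUG. The log2 fold change of miR-200b-3p was -1.43 ± 0.44 (adjusted p = 0.0174, edgeR) and that of miR-200c-3p was -1.71 ± 0.57 (adjusted p = 0.0318, edgeR). Both changed with single libraries left out. For miR-200b-3p the call was lost without mouse library 1, AGO2 library 1 or AGO2 library 2, with log2 fold changes of -1.01, -1.58 and -0.93. For miR-200c-3p it was lost without mouse library 1 (-0.60, adjusted p = 0.580, edgeR) or AGO2 library 2 (-1.06, adjusted p = 0.369, edgeR), with library totals alone (adjusted p = 0.0741) and with all 6 libraries in 1 fit (adjusted p = 0.0733). The third member of that seed, miR-429-3p, lay lower in both AGO2 libraries but was not called (log2 fold change -0.63 ± 0.50, adjusted p = 0.327, edgeR).

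The mouse libraries also differed between the members. In library 2 over library 1, the log2 ratio was 0.65 for miR-200a-3p and 0.49 for miR-141-3p, against -0.84 for miR-200b-3p and -1.80 for miR-200c-3p, with 0.69 for miR-429-3p and a median of -0.24 over the 171 miRNA. The part of this difference in the AGO2 result was not tested.

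With TMM factors and totals computed without the members, both higher calls remained, and miR-200b-3p (-1.22, adjusted p = 0.0578, edgeR) and miR-200c-3p (-1.51, adjusted p = 0.0909, edgeR) were no longer called. Ratios within the family do not depend on such scaling. The ratio of the AACACUG to the AAUACUG 3p counts was 1.85 and 5.08 in mouse, 16.2 and 32.6 in AGO2 and 1.03 and 0.654 in bovine libraries. The 3 groups did not overlap. The mean log2 ratio was higher in AGO2 than in mouse by 2.91, a 7.50-fold difference, and lower in bovine than in mouse by 1.90 (log2 difference -1.90), a 3.73-fold difference. An exact two-sided permutation test gave p = 0.333 for each, the smallest p that 2 libraries against 2 can give.

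Pairs of both seeds were then compared within each cluster. On chromosome 4, the 3p ratio of miR-200a to miR-200b was 2.25 and 6.31 in mouse, 23.2 and 42.7 in AGO2 and 1.29 and 0.907 in bovine libraries. In the same cluster the ratio of miR-200a to miR-429 was 17.3 and 16.9 in mouse, 76.5 and 81.4 in AGO2 and 16.5 and 14.7 in bovine libraries, so that bovine lay close to mouse for this pair. On chromosome 6, that of miR-141 to miR-200c was 1.54 and 7.55 in mouse, 10.9 and 56.3 in AGO2 and 0.949 and 0.552 in bovine libraries. Each AGO2 library was above each mouse library and each mouse library above each bovine library in the ratios of miR-200a to miR-200b and of miR-141 to miR-200c, and AGO2 was above mouse in all 3. The lower ratio of seeds in bovine was thus not shared evenly by the AAUACUG members.

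The clusters as wholes moved less between mouse and AGO2. The 3p ratio of the chromosome 4 to the chromosome 6 cluster was 2.49 and 3.29 in mouse and 5.22 and 2.59 in AGO2 libraries, which overlap. The mean log2 difference of 0.36 had an exact two-sided permutation p of 0.667 and turned to -0.15 without AGO2 library 1. In bovine the ratio was 0.534 and 0.610, with the cluster of miR-200c and miR-141 in excess. The log2 difference from mouse was -2.33, or 5.02-fold, with p = 0.333 in the same exact permutation test.

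Summed levels per cluster are given next. The 3p counts of miR-200c and miR-141 together came to 45511 and 43838 RPM in mouse, 54188 and 102435 RPM in AGO2 and 47919 and 46616 RPM in bovine libraries. Both bovine sums were slightly above both mouse sums, although the make-up by member differed, and both were below the AGO2 sums. The chromosome 4 cluster summed to 113378 and 144282 RPM in mouse, 282907 and 265132 RPM in AGO2 and 25592 and 28415 RPM in bovine libraries, and these groups did not overlap.

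The comparison of bovine with mouse asks how far the family's level is shared between lactating glands of both species. The fit held 158 miRNA that were matched by name and arm and reached 100 RPM in any of the 4 libraries, and all 7 bovine members were tested. Of these, 5 were called lower in bovine, 0 higher and 2 were not called, and neither of these 2 had an unadjusted p under 0.05. DESeq2 also called 5 lower and 0 higher. Of the 5, miR-200a-5p reached 100 RPM in the mouse libraries only, so that it entered the fit through the group in which it was higher, and its call is no support for a lower level in bovine. Over all 158, 55.1% were called, 27.2% higher and 27.8% lower. The median log2 fold change was -1.42 over the 7 members and 0.06 over all miRNA tested. The median over the members counts miR-200a-5p too, so it is a description and no support for a lower level in bovine. In tissue of mixed cells, fewer epithelial cells and less of a miRNA per cell cannot be told apart.

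Of the 3p arms, miR-200a-3p and miR-429-3p of chromosome 4 differed most. In bovine miR-200a-3p was lower than in mouse by a log2 fold change of -3.21 ± 0.31, or 9.25-fold (adjusted p = 0.000619, edgeR), and miR-429-3p by -3.08 ± 0.37, or 8.43-fold (adjusted p = 0.00122, edgeR). Both calls remained without any 1 library and under every other alternative run. The log2 fold change of miR-200b-3p was -1.42 ± 0.37 (adjusted p = 0.0188, edgeR) and that of miR-200a-5p was -1.56 ± 0.39 (adjusted p = 0.0159, edgeR). Both were no longer called without either bovine library, at adjusted p of 0.185 and 0.0668 for miR-200b-3p and 0.167 and 0.191 for miR-200a-5p. With library totals alone miR-200b-3p was at -1.05 and not called (adjusted p = 0.057, edgeR). The 5p arm of miR-200b did not pass the test, at -0.05 ± 0.38 (adjusted p = 0.918, edgeR).

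Of the chromosome 6 members, miR-141-3p was called lower in bovine with a log2 fold change of -1.10 ± 0.30 (adjusted p = 0.0198, edgeR), and the call was lost without bovine library 1 (adjusted p = 0.120) or bovine library 2 (adjusted p = 0.288, edgeR), with library totals alone (-0.73, adjusted p = 0.0861), in the fit of all 6 libraries (-0.95, adjusted p = 0.0815) and with bta- lines only (-0.89, adjusted p = 0.0619). For miR-200c-3p the log2 fold change was 0.88 ± 0.57 (adjusted p = 0.235, edgeR). Its call turned on 1 library, since without mouse library 1 it was 2.05 and called higher (adjusted p = 0.000446, edgeR).

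**Figure D3:**
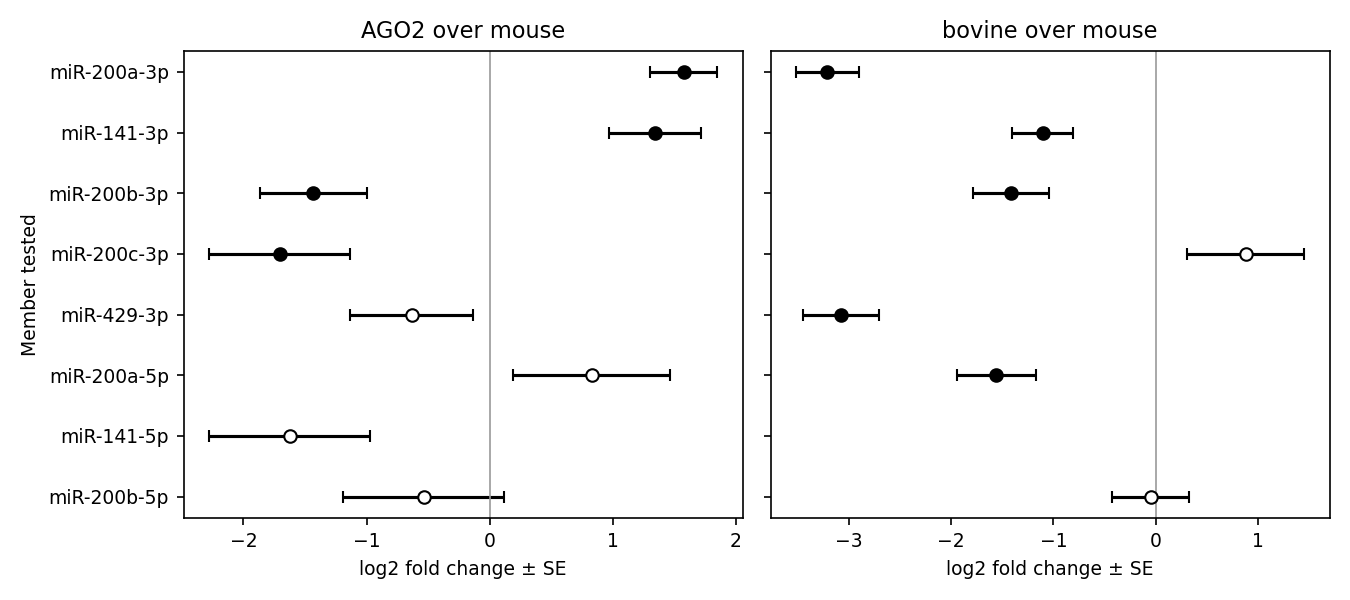
Points give the log2 fold change of each member tested, with bars of 1 SE, for AGO2 over mouse on the left and bovine over mouse on the right; filled points passed an adjusted p under 0.05. In AGO2 the filled points of miR-200a-3p and miR-141-3p lie above 0 and those of miR-200b-3p and miR-200c-3p below it, and in bovine all 5 filled points lie below 0. The bovine point of miR-200a-5p is among these, although it entered the fit through the mouse libraries only.

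The 5p arms were minor in every library. The level of miR-200b-5p was 431 and 294 RPM in mouse, 331 and 124 RPM in AGO2 and 388 and 514 RPM in bovine libraries, and the mouse range overlapped that of each other group. The level of miR-141-5p was 334 and 291 RPM in mouse and 126 and 58.7 RPM in AGO2 libraries, which did not overlap. The level of miR-200a-5p was 173 and 122 RPM in mouse, 313 and 162 RPM in AGO2 and 67.5 and 61.9 RPM in bovine libraries. The rarest were miR-200c-5p, at 15.5 and 15.1 RPM in mouse and at 0 and 9.92 RPM in AGO2, and miR-429-5p, at 0 and 1 count in mouse and 0 in both AGO2 libraries. In the edgeR test of AGO2 over mouse no 5p arm was called, and 1 had an unadjusted p under 0.05, miR-141-5p, which DESeq2 called lower (-1.52, adjusted p = 0.033). The log2 fold changes were -1.63 ± 0.65 for miR-141-5p (adjusted p = 0.0677, edgeR), 0.83 ± 0.64 for miR-200a-5p (adjusted p = 0.316, edgeR) and -0.54 ± 0.65 for miR-200b-5p (adjusted p = 0.522, edgeR), while miR-200c-5p and miR-429-5p were below the filter.

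The share of the 5p arm in the counts of both arms was largest for miR-200b in every library. It was 1.27% and 1.54% in mouse, 2.79% and 2.03% in AGO2 and 3.46% and 3.44% in bovine libraries. For miR-200a it was 0.228% and 0.103% in mouse, 0.117% and 0.0633% in AGO2 and 0.482% and 0.471% in bovine libraries. For miR-141 it was 1.20% and 0.745% in mouse and 0.253% and 0.0583% in AGO2 libraries, lower in both AGO2 libraries. For miR-200c it was 0.0865% and 0.294% in mouse, 0 and 0.552% in AGO2 and, with the line under the human name, 0.0532% and 0.0442% in bovine libraries. The 0 of 17852 counts in AGO2 library 1 allows a share of up to 0.0168%. For miR-429 the 3p arm was counted 40538 and 58848 times in mouse against 0 and 1 for the 5p arm, and the 0 allows a share of up to 0.0074% in mouse library 1.

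The log2 ratio of 5p over 3p was tested with limma over all pairs of arms with at least 10 counts in each arm summed over the 4 libraries compared, so that single libraries may hold 0. Between AGO2 and mouse, 4 of the family's pairs were tested and 0 were called, against 3.05% of the 164 pairs tested (1.22% higher and 1.83% lower), and 1 of the 4 had an unadjusted p under 0.05. The differences in the log2 ratio were -2.97 ± 0.83 for miR-141 (adjusted p = 0.104, limma), -0.84 ± 0.64 for miR-200a (adjusted p = 0.402, limma), 0.79 ± 0.43 for miR-200b (adjusted p = 0.268, limma) and -2.02 ± 2.69 for miR-200c (adjusted p = 0.611, limma). The last rests on the 0 in AGO2 library 1 and on the pseudocount of 0.5, and was 1.80 without that library. The pair of miR-141 was called lower when either AGO2 library was left out, at -4.03 without library 1 and -1.91 without library 2 (adjusted p = 8.3e-08 and 0.0128, limma), where the spread came from the mouse libraries alone.

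Between bovine and mouse, 3 pairs were tested and 2 were called with a higher ratio of 5p to 3p in bovine, against 15.9% of the 107 matched pairs in that direction, 11.2% in the other and 27.1% in either. The difference was 1.64 ± 0.44 for miR-200a (adjusted p = 0.0341, limma) and 1.34 ± 0.32 for miR-200b (adjusted p = 0.0205, limma). Both calls were lost without either bovine library and when the spread was not allowed to follow abundance (adjusted p = 0.0878 for both, limma), while the differences stayed at 1.06 to 2.21 for miR-200a and 1.19 to 1.48 for miR-200b with 1 library left out. For miR-200c the difference was -1.72 ± 0.64 (adjusted p = 0.0832, limma), and it was called lower with at least 50 counts in each arm (adjusted p = 0.0298) or without mouse library 1 (-2.61, adjusted p = 0.00134, limma).

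**Figure D4:**
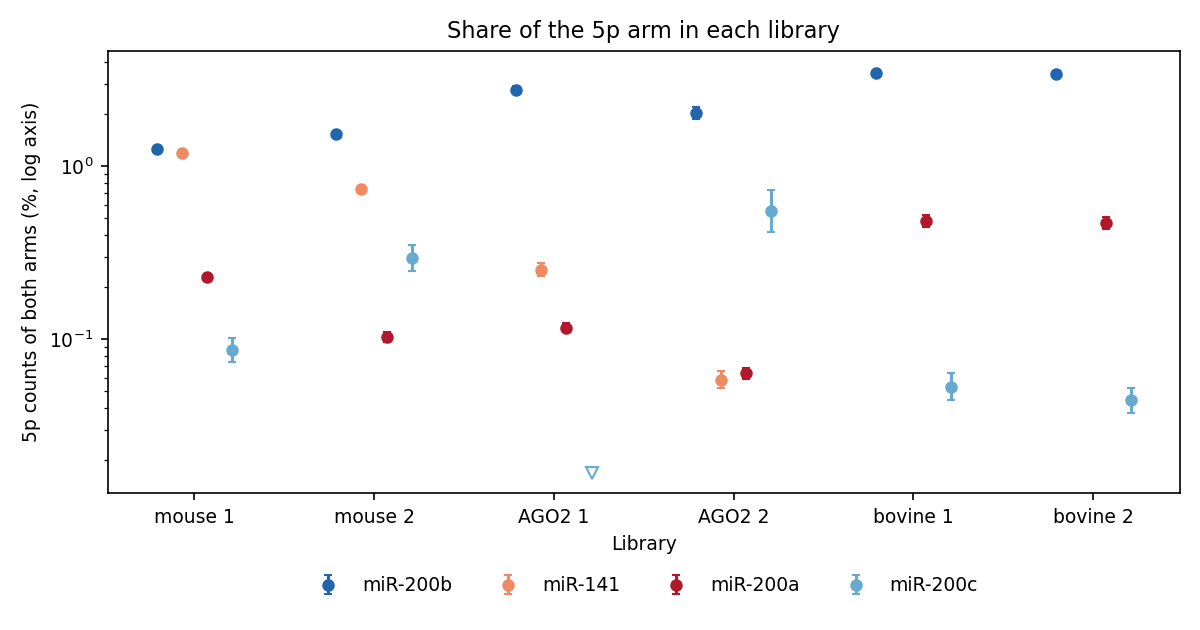
Points give the 5p counts as a share of the counts of both arms (%, log axis) for 4 precursors in each library, with 95% Wilson intervals, and the open triangle marks the share that a count of 0 allows. The points of miR-200b are the highest in every library, and those of miR-141, measured in mouse and AGO2 libraries, lie at 1.20% and 0.745% in mouse and 0.253% and 0.0583% in AGO2.

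The miRNA whose levels were most like those of the leading members were sought among 160 matched miRNA over the 6 libraries. Within a group the libraries share species and kit, and mouse and AGO2 share both. Closest to miR-200a-3p were miR-223-3p, abundant in myeloid cells (Pearson r = 0.997), miR-345-5p (r = 0.996) and miR-144-3p, an erythroid miRNA (r = 0.990). Of these, miR-345-5p lay near the floor in bovine, at 0.74 and 0.66 RPM, and reached 100 RPM in the AGO2 libraries only. Closest to miR-200c-3p were let-7e-5p (r = 0.994), let-7b-5p (r = 0.989) and miR-652-3p (r = 0.982). Within the family, r with miR-200a-3p was 0.877 for miR-141-3p, 0.817 for miR-429-3p, -0.20 for miR-200b-3p and -0.90 for miR-200c-3p. These values describe log2(RPM + 1) over 3 groups of 2 and carry no test.

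Markers of cell types were set beside the family. In AGO2 over mouse, 15.4% of all 299 miRNA tested were called higher and 12.4% lower. Of the 7 epithelial miRNA tested, 0 were higher and 2 were lower, with 4 at an unadjusted p under 0.05. The called ones were miR-31-5p (log2 fold change -2.85, adjusted p = 0.00328, edgeR) and miR-375-3p (-1.71, adjusted p = 0.0481, edgeR). Of the erythroid list 1 of 3 rose, miR-144-3p (2.40, adjusted p = 0.0021, edgeR), with 2 of the 3 at an unadjusted p under 0.05. The erythroid list summed to 13343 and 6504 RPM in mouse and 32468 and 15527 RPM in AGO2 libraries. Of the leukocyte list 0 of 5 were called, with 1 at an unadjusted p under 0.05 and with sums of 1263 and 2123 RPM in mouse and 2351 and 2971 RPM in AGO2 libraries. The stromal and contractile list had 0 of 5 called, with 2 at an unadjusted p under 0.05 and sums of 54443 and 71185 RPM in mouse and 37249 and 35114 RPM in AGO2 libraries. The endothelial list had miR-126a-5p higher and miR-126a-3p lower, and of 2 muscle miRNA tested miR-1a-3p was lower. The part of these cell types in the AGO2 values of the family was not tested.

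The epithelial sums given above, over 8 miRNA in mouse and 7 in bovine, overlapped between the species. In bovine over mouse, 3 of the 6 epithelial miRNA tested were lower and 1 was higher, beside 27.8% and 27.2% of all 158 tested. The lower ones were miR-182-5p (log2 fold change -2.25), miR-96-5p (-3.44) and miR-183-5p (-2.81), which are made from 1 cluster, whereas miR-205-5p, typical of basal epithelial cells, was higher (2.10, adjusted p = 0.00323, edgeR). Of the leukocyte list 2 of 5 were higher and 2 lower, with sums of 2553 and 3285 RPM in bovine. Among the higher ones, miR-155-5p reached 100 RPM in the bovine libraries only, so its call is no support for a higher level in bovine. Of the erythroid list 1 of 2 tested was lower, miR-144-3p (-6.59, adjusted p = 0.000233, edgeR), with sums of 1709 and 1098 RPM in bovine. At 14.3 and 14.3 RPM in bovine, miR-144-3p reached 100 RPM in the mouse libraries only, so its call is no support for a lower level in bovine. The stromal and contractile list had 0 of 4 called and 0 at an unadjusted p under 0.05, at 54443 and 71185 RPM in mouse and 78041 and 63691 RPM in bovine. The endothelial list summed to 24194 and 34265 RPM in mouse against 62356 and 55972 RPM in bovine, and the muscle list to 163 and 213 RPM against 727 and 782 RPM, both without a test. The names of miR-126 and miR-1 differ between the lists, and miR-133a-3p and miR-206-3p did not reach 100 RPM in any of these libraries. The part of cell makeup in the bovine values of the family was not tested.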

How the data were processed

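Small RNA was sequenced in 2 mouse, 2 AGO2 and 2 bovine libraries. As the authors describe, poly-A stretches were cut off, reads were selected by size and counts were made with the quantifier module of miRDeep2 on known miRBase precursors and on precursors predicted from the reads. The mouse build was GRCm38 and the bovine build UMD3.1, per the submitters' processing notes. The deposited table gives unscaled counts for each mature form. Its other value column, a score that the authors scaled from the counts, and the lists of predictions were not used. Removal of poly-A stretches can take an A off the 3′ end of reads. In mouse miR-200b-3p and miR-200c-3p end in A, as do miR-200a-5p, miR-141-5p, miR-200b-5p and miR-429-5p.

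RPM were computed over the sum of counts of each library, 3909166 to 10613807 counts. The library numbers follow the order of the labels and were not used to pair. For counts edgeR 4.0.16 was used (R 4.3.3, TMM, quasi-likelihood F test, adjusted p under 0.05). In AGO2 over mouse the fit held the miRNA past the study's count filter, and in bovine over mouse those among 360 matched by name and arm that reached 100 RPM in any library. The SE was the log2 fold change over the square root of F. Arm ratios were tested with limma 3.58.1 on log2 of 5p over 3p counts, for pairs with at least 10 counts in each arm over the libraries compared, with 0.5 added to each and a trend on the lesser arm. Python 3.11.15 with SciPy 1.17.1 gave the exact permutation tests of ratios and the Wilson intervals. The procedure was tested on simulated data.

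Named were all members, counts of each marker list with up to 4 examples by mouse level, and the 3 miRNA most like miR-200a-3p and miR-200c-3p; the epithelial miRNA called were also named, chosen after their values were seen, as were those called from other lists. The members and lists were chosen with earlier results of these data known. Mouse miR-126a, miR-145a and miR-451a stood for miR-126, miR-145 and miR-451. Alternatives were DESeq2 1.42.0, its size factors, library totals, factors without the members, other filters, pseudocounts and matching, all 6 libraries in 1 fit, each library left out and the library number as a replicate block.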

Additional observations from a re-analysis of the deposited data

How the results depend on the processing

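The library numbers come from the order of the labels, and no source used here says whether a mouse and an AGO2 library of 1 number came from the same animal, so the numbers were not used to pair. The deviations of libraries of 1 number had r = 0.282 over 299 miRNA. With 1 difference per group, this value cannot show whether such libraries share an animal. With the number as a replicate block, chosen after seeing the data, 2 members were called higher and 3 lower in AGO2, miR-141-5p being the added one (-1.70, adjusted p = 0.0232, edgeR), with 60 higher and 61 lower over all miRNA, and 1 member pair of arms was called lower, miR-141 (adjusted p = 5.8e-05, limma), with 12 pairs higher and 21 lower over all.

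In AGO2 over mouse, the 2 members called higher became 0 without a filter and 1 to 2 with 1 library left out. The 2 called lower became 1 with library totals, 0 with TMM and totals without the members, 1 with all 6 libraries in 1 fit and 0 to 2 with 1 library left out. DESeq2 called miR-141-5p lower as well (-1.52, adjusted p = 0.033), and miR-200b-5p ran from -0.999 to 0.12 (without AGO2 library 2) with 1 library left out. In bovine over mouse, the 0 members called higher became 0 to 1 and the 5 called lower 2 to 5 with 1 library left out, and 3 were called lower with library totals and with bta- lines only. Fold changes of miR-200b-5p turned to 0.32 with library totals, 0.13 in the fit of all 6 libraries, 0.26 without mouse library 1 and 0.12 without bovine library 1, and ran from -0.34 to 0.26 with 1 library left out. Matching by sequence as well as name, chosen after seeing the data, added 29 miRNA and changed no member's call.

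For the arm ratio of AGO2 minus mouse, 0 to 2 members were called lower with 1 library left out, and miR-200c ran from -5.84 to 1.80 (without AGO2 library 1). For bovine minus mouse, the 2 called higher became 0 without the trend and 0 to 2 with 1 library left out. The 0 called lower became 1 with at least 50 counts in each arm and 0 to 1 with 1 library left out. The log2 difference of cluster ratios between AGO2 and mouse was -0.15 to 0.87 with 1 library left out, and the family's share in bovine was 6.07% of TMM-normalised CPM. Over all miRNA tested, the calls ranged over the alternatives from 29 to 69 higher (46 reported) and 21 to 61 lower (37) in AGO2, and from 30 to 91 higher (43) and 26 to 98 lower (44) in bovine. Calls of arm ratios ranged from 0 to 31 higher (2) and 1 to 54 lower (3) in AGO2, and from 6 to 34 higher (17) and 4 to 26 lower (12) in bovine. The cause of these changes was not tested. With 2 libraries a group, the seed and cluster ratios cannot reach a p under 0.05.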
